A study of Mus musculus with 48 samples.

Results

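Transcripts of the nuclear receptors, the family of transcription factors that small lipophilic ligands switch on or off, were followed in mouse liver after 3 Scarb1-directed antisense oligonucleotides. The set consisted of 32 gene symbols listed by family membership, chosen with earlier results of these data known. Of the 32, 31 had a row in the count table of 23930 genes. Nr2f6 was not analysed here. Of the 31, 28 passed the filter on low counts and were tested together with all 12672 genes that passed it. Nr1h4, Nr4a2 and Nr4a3 fell below that filter and are given by their counts.

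The 3 compounds, LX-A1656 and LX-A2003 and also LX-A3928, are modified gapmers, that is, short strands with a DNA centre that lets RNase H cut the RNA they pair with. Livers were collected 24, 72 and 168 h after the first administration of an oligonucleotide or of PBS, the vehicle control, with 4 libraries in each of the 12 groups. The treatment was thus the difference between the groups at a given time, and no genetic change was named in any group. The sources used here give no strain, sex, age, dose or number of doses, and nothing states that the 4 libraries of a group came from separate animals, so that p-values measure the spread between libraries. Transcripts were counted by targeted amplicon sequencing, in which each gene is read through a short amplified fragment. Where 3 treated values stand in a row without names, they follow the ascending order of the compound numbers. Levels are compared between groups for the same gene, never between genes.

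Nuclear receptors bind DNA as monomers, as homodimers or as partners of a retinoid X receptor, and exchange corepressor for coactivator proteins when a ligand binds. In liver they sense drugs (Nr1i2 and Nr1i3), bile acids (Nr1h4), oxysterols (Nr1h3 and Nr1h2), fatty acids (Ppara, Ppard and Pparg), thyroid hormone, steroids, retinoic acid and vitamin D, and set the genes of detoxification, bile acid, sterol and lipid metabolism. The orphan members, such as Nr2f2, Nr5a2 and Nr4a1, act without a settled physiological ligand.

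Library totals ran from 8140065 to 17191129 counts, with a median of 10659453. Scarb1, the target of the 3 oligonucleotides, was at 271.6 to 319.7 counts per library scaled to a common depth (CPM) as means of the PBS groups and at 4.42 to 48.1 CPM in the treated groups. All 9 measured hepatocyte markers were above 0 in every group, and the marker levels of several cell types moved with treatment. At 168 h the summed hepatocyte markers were 67660 to 86180 CPM with PBS, 36500 to 53620 with LX-A1656, 31960 to 40290 with LX-A2003 and 30130 to 92830 with LX-A3928. Over the same groups the summed markers of stellate cells, the vitamin A storing cells of the liver, were 483.7 to 541.6, 1343 to 1781, 709.6 to 1051 and 538.6 to 1773 CPM. The 5 measured markers of recruited macrophages summed to 49.9 to 62.2, 492.2 to 783.1, 264.8 to 326.7 and 167.3 to 316 CPM. At 72 h the hepatocyte sums were 67470 to 74860 CPM with PBS and 40520 to 59700 CPM with LX-A1656, with 6 of 9 markers called lower and none higher, and the recruited macrophage sums were 42 to 55.4 and 124.4 to 177.8 CPM. Of all genes in that LX-A1656 comparison, 23.4% were lower and 24.7% higher. The other oligonucleotides gave hepatocyte sums of 71240 to 74300 and 68950 to 106000 CPM at 72 h. In this bulk tissue, fewer cells of a type and less RNA per cell cannot be told apart, and the part of these shifts in the receptor results was not tested. Within LX-A3928 at 168 h, replicates 1 and 3 stood apart from replicates 2 and 4 for several receptors, and with PBS at 168 h replicates 1 and 3 likewise stood apart from replicates 2 and 4.

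Receptor transcripts mostly fell, and most of the change came after 24 h. A gene is called where its adjusted p is under 0.05 in edgeR's quasi-likelihood test, adjusted over all 12672 genes. The 3 oligonucleotides are compared with the same PBS libraries at each time, so their results are not independent of each other. Of 252 tests (28 members in 9 comparisons with PBS), 99 were called, 75 lower and 24 higher. Vdr passed the filter only through treated libraries at 168 h, with no PBS library above the filter's level, so its 4 higher calls support nothing and it is described by its counts. Without Vdr, 95 of 243 tests were called, 75 lower and 20 higher. Over the 9 comparisons, 15 members were called lower at least once and never higher, 6 were called higher and never lower, 3 were called in both directions at different times, and 4 were never called (Nr1h2, Rxrb, Rara and Rarb).

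At 24 h, LX-A1656 changed 3 of 28 members (1 higher, 2 lower), where 2.86% of all tested genes were called (0.986% higher, 1.88% lower). LX-A2003 changed 4 (2 higher, 2 lower) against 2.09% of all genes (0.939% higher, 1.15% lower), and LX-A3928 changed 5 (4 higher, 1 lower) against 3.26% (1.68% higher, 1.58% lower). At 72 h, LX-A1656 changed 19 members, 4 higher and 15 lower, where 48.2% of all genes were called (24.7% higher, 23.4% lower). LX-A2003 changed 7 (2 higher, 5 lower) at 72 h against 12% of all genes (5.48% higher, 6.55% lower), and LX-A3928 changed 5 (1 higher, 4 lower) against 9.8% (4.47% higher, 5.33% lower). At 168 h LX-A1656 changed 19 members, 3 higher and 16 lower, against 63.9% of all genes (34.1% higher, 29.7% lower). LX-A2003 changed 21 (4 higher, 17 lower) against 55.1% (29.8% higher, 25.3% lower), and LX-A3928 changed 16 (3 higher, 13 lower) against 48% (27.3% higher, 20.7% lower). Fitting only the 8 libraries of that last comparison gave 7 members (0 higher, 7 lower) and 3208 calls over all genes in place of 6087. Vdr is 1 of the higher members with LX-A1656 at 72 h and with each oligonucleotide at 168 h, and without it these 4 comparisons had 18, 18, 20 and 15 calls. As shares with Vdr counted, 67.9%, 75% and 57.1% of the 28 members were called at 168 h, against 63.9%, 55.1% and 48% of all genes. With LX-A1656 the share was near that of all genes. The called members were mostly lower where the calls over all genes were more evenly split. The median log2 fold change of the 27 members without Vdr was -0.60 with LX-A1656 at 72 h against 0.05 for all genes. At 168 h it was -0.77, -0.53 and -0.40 for the 3 oligonucleotides against 0.10, 0.04 and 0.08 for all genes.

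The split depends on how libraries are scaled to each other. When library totals alone replaced TMM factors (trimmed mean of M values), the median of all genes moved to 0.27 with LX-A1656 at 72 h and to 0.56, 0.45 and 0.39 for the 3 oligonucleotides at 168 h. The member counts then became 15 (4 higher, 11 lower) at 72 h with LX-A1656, and 16 (6 higher, 10 lower), 11 (6 higher, 5 lower) and 13 (5 higher, 8 lower) at 168 h. Of the calls over all genes in the same fits, 66.6% were higher at 72 h with LX-A1656, and 73.7%, 77.7% and 77.9% at 168 h. Of the 99 calls, 68 held under that scaling, 30 were lost and 1, Nr5a2 with LX-A1656 at 168 h, turned its direction at a value next to 0.

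**Figure D1:**
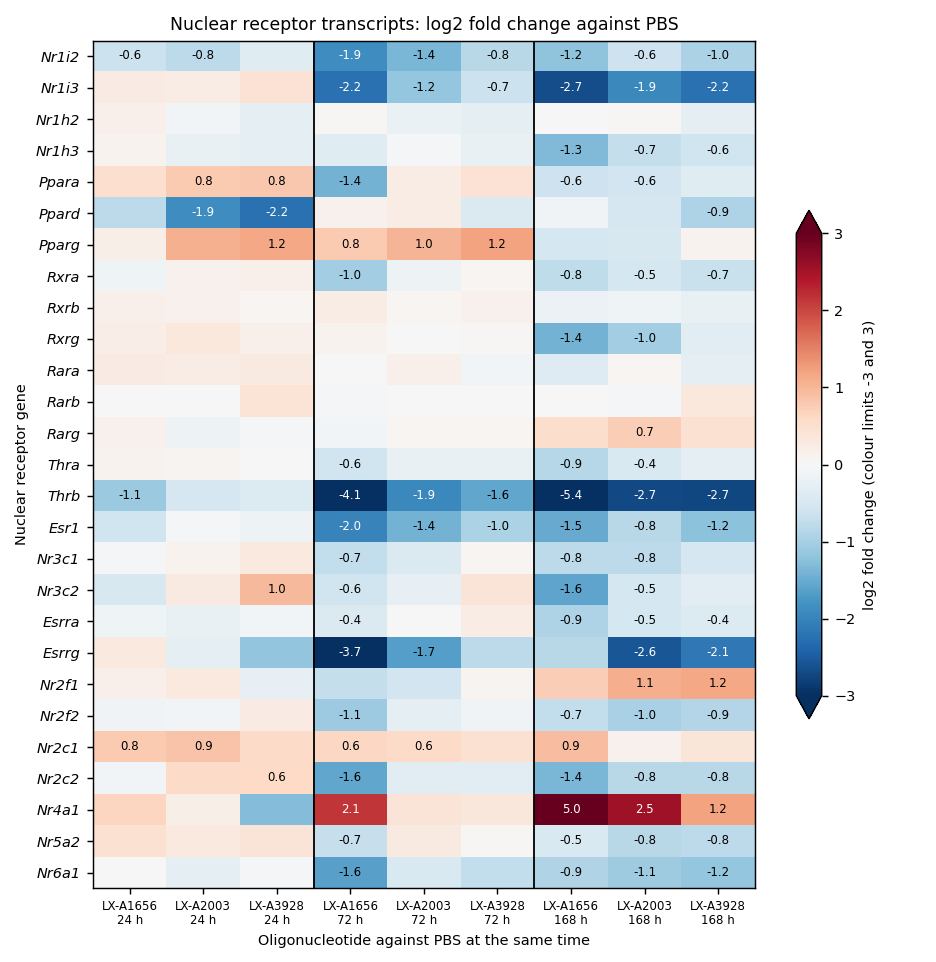
Log2 fold change of 27 nuclear receptor transcripts (rows) for each oligonucleotide and time relative to PBS (columns), with 4 libraries a group. Colour runs from blue (lower) to red (higher) between -3 and 3, and a printed value marks an adjusted p under 0.05. Vdr is left out because PBS livers held almost no counts of it. Thrb, Nr1i3, Nr1i2 and Esr1 are blue in all 6 columns of the later times, Nr4a1 is red at 168 h, and the 24 h columns hold few values.

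Of the xenobiotic receptors, Nr1i2 was lower from 24 h on and Nr1i3 from 72 h on. Nr1i2 encodes PXR, which senses drugs and induces detoxifying enzymes, and was lower in 8 of the 9 comparisons. Its levels with PBS at 24 h were 90.3, 85.6, 78.2 and 85.6 CPM in replicates 1 to 4, the order used for all values below. With LX-A1656 they were 64.2, 56.7, 52.9 and 43.9 CPM, and with LX-A2003 48, 52.1, 46.5 and 50.2 CPM. All 8 treated libraries lay below all PBS libraries. The log2 fold changes at 24 h were -0.64 ± 0.16 (SE; adjusted p = 0.014) and -0.79 ± 0.16 (adjusted p = 0.00258), and the first was lost without LX-A1656 replicate 4 (adjusted p = 0.0848). LX-A3928 at 24 h held 62.8 to 71.1 CPM and was not called. At 72 h Nr1i2 was at 19.6 to 29.8 CPM with LX-A1656 and 74.8 to 104 CPM with PBS, a log2 fold change of -1.86 ± 0.17 (adjusted p = 5.78e-13). The change was -1.36 ± 0.16 with LX-A2003 and -0.83 ± 0.16 with LX-A3928 at 72 h, and -1.21 ± 0.16, -0.63 ± 0.16 and -0.96 ± 0.16 at 168 h. Each of these 6 later comparisons had no overlap between groups, and the LX-A2003 call at 168 h was lost under library totals (adjusted p = 0.345).

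Nr1i3 encodes CAR, the partner sensor of drugs and bilirubin, and followed another course, with no call at 24 h. At 72 h it was at 171, 189, 166 and 142 CPM with PBS and at 25.9, 45.2, 31.6 and 38.7 CPM with LX-A1656. The LX-A2003 libraries held 73.4, 68.5, 68.7 and 89.2 CPM and the LX-A3928 libraries 97, 112, 131 and 86.4 CPM, all below PBS. On the log2 scale Nr1i3 changed by -2.24 ± 0.19 (adjusted p = 2.17e-13), -1.16 ± 0.19 (adjusted p = 9.23e-06) and -0.65 ± 0.19 (adjusted p = 0.0158). The last was lost without PBS replicate 2 (adjusted p = 0.0644) or LX-A3928 replicate 4 (adjusted p = 0.0762). At 168 h Nr1i3 stood at 22.3 to 29 CPM with LX-A1656, 37.7 to 46.8 with LX-A2003 and 22.2 to 50.7 with LX-A3928, against 142 to 189 CPM with PBS. Its transcript was thus at 15.7%, 26.3% and 21% of the PBS level. The change between the effect at 24 h and that at 168 h was itself called for all 3 oligonucleotides.

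Of 12 listed PXR and CAR target genes, 11 were tested, and their calls at 168 h went in both directions, as did those over all genes. None of the 11 was called at 24 h by edgeR, with 2, 1 and 2 of them at an unadjusted p under 0.05. At 72 h, 2 were higher and 4 lower with LX-A1656, 4 lower with LX-A2003 and 2 lower with LX-A3928. By 168 h the calls were 4 higher and 5 lower, 5 higher and 5 lower, and 3 higher and 5 lower. Over all genes 2.86%, 2.09% and 3.26% were called at 24 h. At 72 h 24.7%, 5.48% and 4.47% were higher and 23.4%, 6.55% and 5.33% lower. The shares at 168 h were 34.1%, 29.8% and 27.3% higher and 29.7%, 25.3% and 20.7% lower. Ces2a, a carboxylesterase, fell from 1042 to 22.1 CPM at 168 h with LX-A1656 (log2 fold change -5.55 ± 0.21), and Cyp2c37, a cytochrome P450, changed by -4.87 ± 0.51. Slco1a4, an organic anion uptake transporter, rose from 0.504 to 39.2 CPM (6.29 ± 0.48).

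The obligate partner Rxra, the main retinoid X receptor of liver and the dimer partner of PXR, CAR, LXR, FXR and the PPARs, was lower in 4 comparisons. At 72 h it was at 869.7, 888, 768 and 777 CPM with PBS and at 476, 423, 358 and 352 CPM with LX-A1656, without overlap. That was 48.7% of the PBS level, a log2 fold change of -1.04 ± 0.17 (adjusted p = 1.29e-06). The same time gave 708 to 772 CPM with LX-A2003 and 793 to 936 CPM with LX-A3928, neither called. PBS libraries at 168 h held 916, 745, 1178 and 782 CPM. LX-A1656 held 522, 465, 521 and 620.4 CPM (log2 fold change -0.77 ± 0.17, adjusted p = 9.85e-05). LX-A2003 held 625, 811, 635 and 452 CPM (-0.52 ± 0.17, adjusted p = 0.00707), overlapping PBS, and its call was lost without PBS replicate 3 (adjusted p = 0.0654). LX-A3928 held 565, 647, 342 and 726 CPM (-0.67 ± 0.17, adjusted p = 0.000887). Under library totals all 3 calls at 168 h were lost (adjusted p = 0.116, 0.595 and 0.11), and fitting only the libraries compared ended those with LX-A2003 and LX-A3928 (adjusted p = 0.0662 and 0.102). None of the 24 h groups differed by a call, and the treated libraries there ranged from 654 to 1091 CPM.

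The other retinoid X receptor genes had other courses. Rxrg fell at 168 h with 2 of the 3 oligonucleotides: PBS libraries held 10.2, 11, 16.7 and 12.2 CPM, LX-A1656 libraries 4.75, 4.84, 3.91 and 5.15, and LX-A2003 libraries 6.49, 6.87, 6.33 and 4.7. Rxrg thus changed by -1.42 ± 0.16 and -1.04 ± 0.16 on the log2 scale (adjusted p = 1.02e-10 and 2.58e-07). LX-A3928 held 8.64 to 10.7 CPM, overlapping PBS, and the difference of 0.69 ± 0.15 between LX-A3928 and LX-A2003 was called (adjusted p = 0.00354), though not when only the libraries compared were fitted (adjusted p = 0.319). Rxrb, the widely expressed member, was never called, with log2 fold changes between -0.23 and 0.22 over the 9 comparisons.

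**Figure D2:**
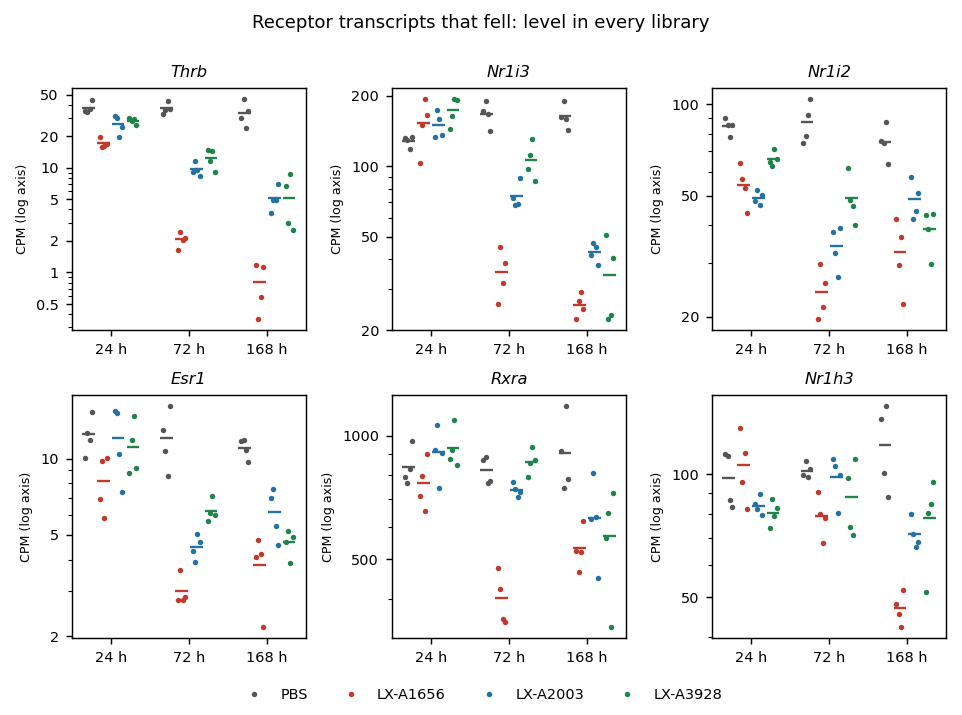
Level of 6 receptor transcripts in each of the 48 libraries as TMM-normalised CPM on a log axis, by time and treatment (points, single libraries; bars, means of 4). Thrb and Nr1i3 step down from 24 to 168 h in all treated groups, Nr1i2 is lowest at 72 h with LX-A1656, and Nr1h3 separates from PBS mainly at 168 h.

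Among the sterol and bile acid sensors, Nr1h3, the gene for the oxysterol receptor LXR-alpha, fell late. At 168 h it was at 137, 101, 147 and 87.9 CPM with PBS, 48.1, 45.5, 42.3 and 52 CPM with LX-A1656, 79.9, 71.3, 66.5 and 68.3 CPM with LX-A2003, and 51.7, 80.2, 84.6 and 95.7 CPM with LX-A3928. The first 2 treated groups lay wholly below PBS, and 1 LX-A3928 library overlapped it. Nr1h3 changed by -1.33 ± 0.16 (adjusted p = 1.29e-09), -0.72 ± 0.16 (adjusted p = 0.000168) and -0.60 ± 0.16 (adjusted p = 0.00183). The LX-A2003 and LX-A3928 calls were lost under library totals (adjusted p = 0.0834 and 0.104), and the latter also with only the libraries compared (adjusted p = 0.118). Nr1h3 was not called at 24 or 72 h. Nr1h2, the gene for LXR-beta, was never called and stayed between -0.28 and 0.16 on the log2 scale. Of 10 LXR target genes, all tested, 4 rose and 4 fell with LX-A1656 at both 72 and 168 h, and at 168 h 5 rose and 3 fell with LX-A2003, and 3 rose and 5 fell with LX-A3928. Of all genes, 24.7% were higher and 23.4% lower with LX-A1656 at 72 h. The shares at 168 h were 34.1%, 29.8% and 27.3% higher and 29.7%, 25.3% and 20.7% lower. Abcg5 and Abcg8, which together form the canalicular sterol exporter, changed by -3.23 ± 0.21 and -2.44 ± 0.21 with LX-A1656 at 72 h. At 168 h Abcg8 was higher with LX-A1656 (0.74 ± 0.19) and lower with LX-A2003 (-1.27 ± 0.20) and LX-A3928 (-1.80 ± 0.20). Abcg1, a macrophage sterol exporter, rose from 10.6 CPM to 54.3, 57.4 and 32.9 CPM at 168 h.

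Nr1h4, the gene for the bile acid receptor FXR, gave 0 to 11 counts a library and was not tested. FXR is known as a liver receptor, and the position of the amplified fragment within the gene is not known here. At 168 h the 4 PBS libraries held 5, 2, 3 and 4 counts, the LX-A1656 libraries 1, 0, 1 and 0, the LX-A2003 libraries 0, 0, 1 and 5, and the LX-A3928 libraries 0, 4, 4 and 3. The depth-adjusted ratio to PBS over the group sums was 0.0787 with LX-A1656 (95% exact counting interval 0.00868 to 0.343, 2 against 14 counts), 0.275 with LX-A2003 (0.0865 to 0.761) and 0.538 with LX-A3928 (0.221 to 1.28). At 72 h the ratios were 0.179 (0.0527 to 0.487), 0.374 (0.157 to 0.83) and 0.537 (0.252 to 1.11). At 24 h they were 0.556 (0.22 to 1.3), 0.861 (0.417 to 1.77) and 1.14 (0.6 to 2.2). These intervals cover counting error only. Of 8 listed FXR target genes 6 were tested, and at 168 h 4 fell and 1 rose with LX-A1656 and with LX-A2003, and 3 fell and 2 rose with LX-A3928. Of all genes at 168 h, 29.7%, 25.3% and 20.7% were lower and 34.1%, 29.8% and 27.3% higher. Abcb11, the bile salt export pump, fell from 538.4 to 39.5, 114 and 113 CPM in the order of the oligonucleotides, and Slc10a1, the bile acid uptake carrier, from 1136 to 156, 202 and 283 CPM. Nr0b2, the gene for the corepressor SHP and itself a nuclear receptor outside the 32, fell from 140.5 to 15.8 CPM with LX-A3928 at 24 h and was lower in all 3 treated groups at 72 and 168 h.

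Nr5a2 encodes LRH-1, an orphan receptor that drives bile acid synthesis genes, and was lower with LX-A1656 at 72 h and with all 3 oligonucleotides at 168 h. At 24 h it was at 95.4 to 117 CPM with PBS and at 133 to 156 CPM with LX-A1656, where the groups did not overlap but the test made no call. At 72 h it was at 142, 132, 109.6 and 94.2 CPM with PBS and at 44.7, 96.8, 79.6 and 75 CPM with LX-A1656 (log2 fold change -0.69 ± 0.19, adjusted p = 0.00183). The 72 h levels with LX-A2003, 138.4 to 149.2 CPM, and with LX-A3928, 108.6 to 131.3 CPM, were not called (0.27 ± 0.18 and 0.04 ± 0.18). At 168 h PBS livers held 85.3, 128, 99.9 and 128 CPM. LX-A1656 held 68.4, 90.2, 97.3 and 62.7 CPM, LX-A2003 60.7, 46, 63.9 and 76.4 CPM, and LX-A3928 96.9, 62.3, 50.4 and 44 CPM. Only LX-A2003 was free of overlap with PBS among these. Nr5a2 changed by -0.47 ± 0.19, -0.83 ± 0.19 and -0.80 ± 0.19 (adjusted p = 0.0253, 0.000187 and 0.000424). The LX-A1656 call at 168 h was lost without PBS replicate 2 or 4 or LX-A1656 replicate 1 or 4 (adjusted p = 0.0848, 0.0834, 0.0796 and 0.1), and under scaling to library totals its value was 0.00013. Library totals also ended the 72 h call and those with LX-A2003 and LX-A3928 at 168 h (adjusted p = 0.0587, 0.0837 and 0.0564), and fitting only the libraries compared ended the last (adjusted p = 0.0515).

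The 3 PPAR genes each had a course of their own. Ppara, the fatty acid sensor that drives hepatic fatty acid oxidation, rose at 24 h. PBS livers held 182, 234, 211 and 214 CPM, LX-A2003 livers 374, 318, 367 and 402 CPM, and LX-A3928 livers 406, 328, 378 and 370.1 CPM, without overlap. The log2 fold changes were 0.79 ± 0.20 (adjusted p = 0.0248) and 0.82 ± 0.20 (adjusted p = 0.0134). The LX-A2003 call was lost on leaving out any of 6 single libraries (PBS replicates 1, 3 and 4, LX-A2003 replicates 1, 3 and 4), at adjusted p up to 0.106, and the LX-A3928 call without PBS replicate 1 (adjusted p = 0.067) or LX-A3928 replicate 1 (adjusted p = 0.0518). The PBS libraries at 72 h held 371, 343, 464 and 247 CPM, a range that spans the treated 24 h libraries. With LX-A1656 at 72 h Ppara was at 127, 174, 118 and 118 CPM, below all PBS libraries (log2 fold change -1.41 ± 0.21, adjusted p = 1.84e-07). The other oligonucleotides held 309 to 498 and 316 to 615 CPM at 72 h and were not called. At 168 h PBS replicates 1 and 3 were at 185 and 203 CPM and replicates 2 and 4 at 361 and 366 CPM. The changes were -0.61 ± 0.20 with LX-A1656 (adjusted p = 0.00805) and -0.58 ± 0.20 with LX-A2003 (adjusted p = 0.0148). Both calls were lost without PBS replicate 2 or 4 (adjusted p = 0.0558 and 0.0594, and 0.0917 and 0.0973), and the first also without LX-A1656 replicate 4 (adjusted p = 0.0535). Both were lost as well under library totals (adjusted p = 0.572 and 0.512) and with only the libraries compared (adjusted p = 0.0501 and 0.0714), and library totals ended the LX-A2003 call at 24 h (adjusted p = 0.0745).

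Ppard, the gene for the widely expressed PPAR-delta, was lower at 24 h with LX-A2003 and LX-A3928. PBS livers held 73.5, 48.4, 60.2 and 36.9 CPM at that time, LX-A1656 livers 31.4, 49.3, 23.9 and 21.7, LX-A2003 livers 15.2, 14.3, 15.1 and 16.1, and LX-A3928 livers 10.3, 12.9, 12.1 and 11.2. Ppard log2 fold changes for the last 2 were -1.85 ± 0.25 (adjusted p = 4.53e-06) and -2.24 ± 0.25 (adjusted p = 2.79e-08). The control level differed between times as well. PBS livers held 21.1, 20, 12.6 and 14.1 CPM at 72 h, -1.70 ± 0.25 against PBS at 24 h (adjusted p = 0.000209). Ppard was the only member called between PBS groups at 72 and 24 h, where 0.0789% of all genes were called (0.0473% higher, 0.0316% lower). At 168 h LX-A3928 held 13.3, 22.9, 6.21 and 20.1 CPM, below the 24.2 to 41.5 CPM of PBS (-0.93 ± 0.25, adjusted p = 0.00154). That call was lost under library totals (adjusted p = 0.0571) and with only the libraries compared (adjusted p = 0.0882). At 72 h no oligonucleotide was called.

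Pparg, the lipid storage regulator, rose with all 3 oligonucleotides at 72 h. PBS livers held 15.3, 9.5, 8.42 and 6.48 CPM, LX-A1656 livers 9.21, 21.6, 21.4 and 15.9, LX-A2003 livers 22.6, 21.2, 20.8 and 15.8, and LX-A3928 livers 18.5, 17.5, 25.4 and 30.9. Pparg changed by 0.78 ± 0.30 (adjusted p = 0.0288), 1.02 ± 0.30 (adjusted p = 0.0166) and 1.22 ± 0.30 (adjusted p = 0.00446). Only the first overlapped PBS, and it was lost without any of PBS replicates 2, 3 and 4 or LX-A1656 replicates 2 and 3 (adjusted p up to 0.116) and without the filter on low counts (adjusted p = 0.0527). The second was lost without PBS replicate 3 (adjusted p = 0.0594) or 4 (adjusted p = 0.0836). At 24 h LX-A3928 was called (1.17 ± 0.30, adjusted p = 0.0191), with 14 to 22.1 CPM against 6.82, 15.2, 5.01 and 5.22 CPM, and the call was lost without PBS replicate 1, 3 or 4 or LX-A3928 replicate 4 (adjusted p up to 0.102). Pparg was not called at 168 h, where the levels were 6.12 to 20.8 CPM in the treated groups and 7.92 to 14.5 CPM with PBS.

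**Figure D3:**
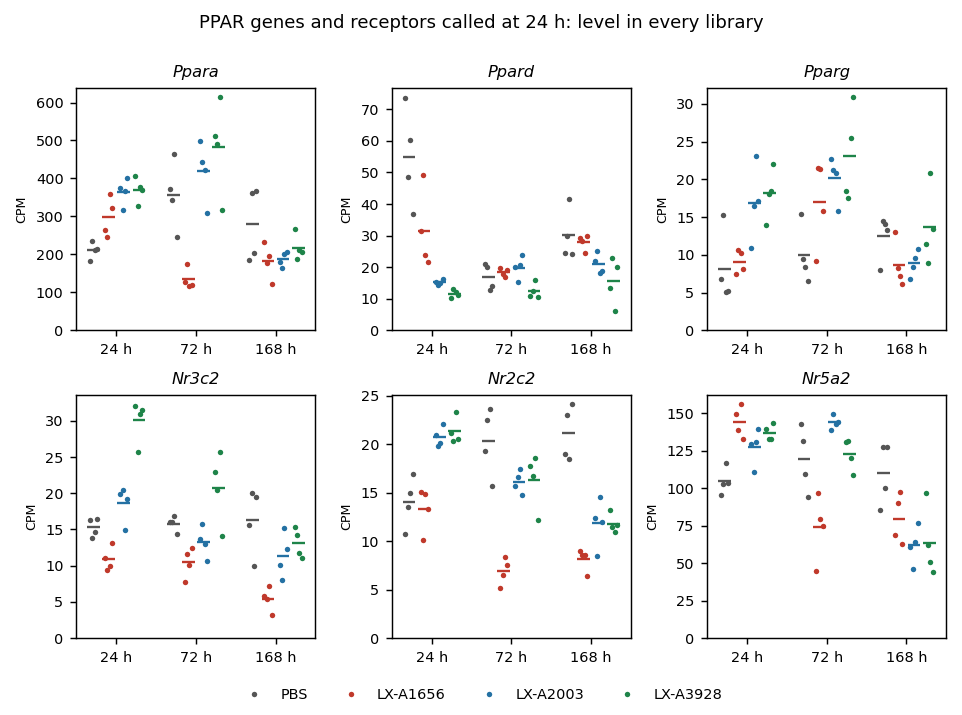
Level of the 3 PPAR genes and of Nr3c2, Nr2c2 and Nr5a2 in each library as TMM-normalised CPM on linear axes from 0, by time and treatment (points, single libraries; bars, means of 4). Ppard in PBS livers is at 36.9 to 73.5 CPM at 24 h and at 12.6 to 21.1 CPM at 72 h, Pparg is above most PBS libraries at 72 h, and Nr3c2 is high with LX-A3928 at 24 h.

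The listed targets of the PPARs were counted in the same way. Of 14 PPAR-alpha targets 13 were tested. At 24 h the higher and lower calls were 3 and 0 with LX-A1656, 1 and 1 with LX-A2003, and 2 and 1 with LX-A3928. At 72 h they were 4 and 5, 3 and 0, and 2 and 1, and at 168 h 6 and 5, 6 and 4, and 4 and 5. Over all genes the higher and lower shares at 24 h were 0.986% and 1.88%, 0.939% and 1.15%, and 1.68% and 1.58%. For 72 h they were 24.7% and 23.4%, 5.48% and 6.55%, and 4.47% and 5.33%. For 168 h they were 34.1% and 29.7%, 29.8% and 25.3%, and 27.3% and 20.7%. Fabp1, the liver fatty acid binding protein, fell from 8679 to 510.4 CPM at 168 h with LX-A1656. Pdk4, which restrains pyruvate oxidation, rose from 9.57 to 79.7 CPM in the same comparison. Of the 6 PPAR-gamma targets, all 6 rose with LX-A1656 at 168 h and 5 rose with each of the others, and none fell in any of the 9 comparisons. At 168 h 34.1%, 29.8% and 27.3% of all genes were called higher. Cidec, a lipid droplet protein, rose from 1.28 to 810.2, 508.6 and 304.7 CPM at 168 h. Cidea rose by 6.72 ± 0.62 and Fabp4 by 2.42 ± 0.32 on the log2 scale with LX-A1656.

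Thrb, the main thyroid hormone receptor gene of hepatocytes, had the lowest share of its PBS level of all tested members. At 24 h it was at 34.8, 34.3, 36.3 and 44 CPM with PBS and at 19.7, 15.9, 16.2 and 16.9 CPM with LX-A1656 (log2 fold change -1.12 ± 0.24, adjusted p = 0.00256). LX-A2003 and LX-A3928 held 19.5 to 31.4 and 25.7 to 29.8 CPM, below all PBS libraries but not called. At 72 h PBS livers held 32.5, 35.8, 43 and 36.1 CPM. LX-A1656 livers held 1.65, 2.46, 2.04 and 2.13 CPM, LX-A2003 livers 9.1, 11.5, 9.6 and 8.38 CPM, and LX-A3928 livers 14.7, 11.5, 14.5 and 9.01 CPM. The 3 treated groups lay below PBS without overlap, at 5.64%, 26.2% and 33.9% of its level, with log2 fold changes of -4.15 ± 0.28 (adjusted p = 9.22e-17), -1.93 ± 0.24 (adjusted p = 5.24e-08) and -1.56 ± 0.24 (adjusted p = 5.23e-06). Thrb in PBS livers at 168 h was at 29.8, 45.8, 24 and 34.8 CPM, LX-A1656 livers 1.19, 0.358, 0.584 and 1.13, LX-A2003 livers 3.66, 4.92, 4.9 and 6.99, and LX-A3928 livers 6.67, 2.94, 8.64 and 2.54. The levels came to 2.37%, 15.3% and 15.1% of PBS (-5.40 ± 0.31, -2.71 ± 0.25 and -2.73 ± 0.26). Every Thrb call held under every alternative tried.

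Thra, the other thyroid hormone receptor gene, fell less. It was at 36.1 to 46.5 CPM with PBS at 72 h and at 27.4 to 29.9 CPM with LX-A1656 (log2 fold change -0.60 ± 0.16, adjusted p = 0.0015). At 168 h it changed by -0.86 ± 0.16 with LX-A1656 (adjusted p = 7.47e-06) and by -0.45 ± 0.16 with LX-A2003 (adjusted p = 0.0142), the latter lost without LX-A2003 replicate 4 (adjusted p = 0.0979), under library totals (adjusted p = 0.863) and with only the libraries compared (adjusted p = 0.0785). The table has 1 row for Thra, so splice forms are not separated here. Of the 6 thyroid hormone target genes, all tested, 2 rose and 3 fell with LX-A1656 at 72 and at 168 h, 1 rose and 3 fell with LX-A2003 at 168 h, and 1 rose and 2 fell with LX-A3928 at 168 h. At 72 h 2 rose and 0 fell with LX-A2003, and 2 rose and 1 fell with LX-A3928. Over all genes 24.7%, 5.48% and 4.47% were higher and 23.4%, 6.55% and 5.33% lower at 72 h. The shares at 168 h were 34.1%, 29.8% and 27.3% higher and 29.7%, 25.3% and 20.7% lower. Dio1, the deiodinase that activates thyroid hormone, fell from 15.3 to 0.0572, 0.344 and 0.518 CPM at 168 h. Me1, malic enzyme, fell with LX-A1656 (-1.09 ± 0.12), and Klf9 rose with LX-A1656 (1.11 ± 0.15) and fell with the other oligonucleotides.

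Among the steroid receptors, Esr1, the oestrogen receptor alpha gene, was lower in all 6 comparisons at 72 and 168 h. PBS livers at 72 h held 12.9, 10.7, 8.54 and 16.1 CPM, against 2.78, 3.64, 2.78 and 2.84 with LX-A1656, 4.33, 3.9, 5.06 and 4.7 with LX-A2003, and 5.68, 6.09, 7.15 and 6.01 with LX-A3928. These were 24.9%, 37.4% and 51.5% of the PBS level (adjusted p = 1.2e-09, 8.79e-06 and 0.00257 by edgeR). In PBS livers at 168 h Esr1 was at 11.7, 11.8, 10.8 and 9.65 CPM, LX-A1656 livers 4.08, 4.78, 4.2 and 2.17, LX-A2003 livers 6.97, 7.62, 5.44 and 4.57, and LX-A3928 livers 4.7, 5.2, 3.9 and 4.92. The treated and PBS groups were separate in all 6 comparisons, and the changes at 168 h were -1.51 ± 0.23, -0.84 ± 0.22 and -1.22 ± 0.23, the second lost under library totals (adjusted p = 0.105). At 24 h LX-A2003 libraries ranged from 7.41 to 15.4 CPM around the PBS range of 10.1 to 15.3, and no call was made.

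Nr3c1, the glucocorticoid receptor gene, was lower in 3 comparisons, with wide spread. At 72 h PBS livers held 78.4, 83.5, 81 and 99.3 CPM and LX-A1656 livers 36.4, 56.2, 58.4 and 55.7 CPM (log2 fold change -0.73 ± 0.29, adjusted p = 0.035). That call was lost without PBS replicate 2 (adjusted p = 0.0521) or 4 (adjusted p = 0.0894) or LX-A1656 replicate 1 (adjusted p = 0.127). At 168 h PBS livers held 50.5, 71.5, 26.8 and 75.5 CPM, LX-A1656 livers 27, 32.8, 39.5 and 31.4, LX-A2003 livers 23.3, 19.6, 34.2 and 52.2, and LX-A3928 livers 60.2, 22.3, 59.9 and 17.8. All 3 treated groups overlapped PBS. The changes were -0.78 ± 0.29 with LX-A1656 (adjusted p = 0.0184) and -0.79 ± 0.29 with LX-A2003 (adjusted p = 0.0199). The first was lost without PBS replicate 2 or 4 or LX-A1656 replicate 1, the second without PBS replicate 2 or 4 or LX-A2003 replicate 1 or 2, at adjusted p of 0.0548 to 0.0938. Library totals ended all 3 calls (adjusted p = 0.162 at 72 h, 0.339 and 0.298 at 168 h), the 72 h and LX-A2003 calls were lost without the filter (adjusted p = 0.0866 and 0.0504), and the latter with only the libraries compared (adjusted p = 0.0909). At 24 h no treated library was below 60.9 CPM, and the PBS libraries ranged from 44.7 to 89.2 CPM. Of 10 glucocorticoid target genes 9 were tested, and at 168 h 8 rose and 1 fell with LX-A1656, 6 rose and 1 fell with LX-A2003, and 5 rose and 2 fell with LX-A3928. At 72 h the calls were 5 higher and 3 lower with LX-A1656, none by edgeR with LX-A2003 (2 of 9 at an unadjusted p under 0.05), and 1 higher and 2 lower with LX-A3928. Over all genes 34.1%, 29.8% and 27.3% were higher and 29.7%, 25.3% and 20.7% lower at 168 h. The shares at 72 h were 24.7%, 5.48% and 4.47% higher and 23.4%, 6.55% and 5.33% lower. Igfbp1, an insulin-like growth factor binding protein, rose from 28.9 to 1621 CPM with LX-A1656 at 168 h. Sgk1, a serum and glucocorticoid regulated kinase, rose from 25.2 to 403.3 CPM, and the phosphatase gene Dusp1 from 23.5 to 184 CPM.

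Nr3c2, the mineralocorticoid receptor gene, was called higher at 24 h with 1 of the 3 oligonucleotides. LX-A3928 livers held 32.1, 25.7, 30.9 and 31.5 CPM and PBS livers 16.3, 13.9, 14.6 and 16.4 CPM, without overlap (log2 fold change 0.97 ± 0.20, adjusted p = 0.00183). LX-A1656 livers held 11.1, 9.4, 9.95 and 13.2 CPM, below PBS but not called, and the difference of 1.46 ± 0.21 between LX-A3928 and LX-A1656 was called (adjusted p = 9.9e-06). At 168 h Nr3c2 was at 15.6, 20.1, 9.96 and 19.6 CPM with PBS and at 5.86, 5.43, 7.12 and 3.22 CPM with LX-A1656 (-1.58 ± 0.21, adjusted p = 1.13e-08). With LX-A2003 it changed by -0.52 ± 0.20 (adjusted p = 0.0276), lost without PBS replicate 2 or 4 or LX-A2003 replicate 1 or 2 (adjusted p = 0.122, 0.102, 0.0773 and 0.126). At 72 h LX-A1656 gave -0.60 ± 0.21 (adjusted p = 0.014), lost without LX-A1656 replicate 1 (adjusted p = 0.072). Both of these calls were lost under library totals (adjusted p = 0.715 and 0.174), and the 168 h call with only the libraries compared (adjusted p = 0.15).

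The oestrogen-related receptors Esrra and Esrrg, orphan regulators of mitochondrial genes, were lower in 4 comparisons each. Esrra changed by -0.43 ± 0.16 with LX-A1656 at 72 h (adjusted p = 0.0261), and at 168 h by -0.93 ± 0.16 (adjusted p = 3.69e-06), -0.53 ± 0.16 (adjusted p = 0.00576) and -0.40 ± 0.16 (adjusted p = 0.0389). The 72 h call was lost without PBS replicate 4 or LX-A1656 replicate 2 or 3, the LX-A2003 call without PBS replicate 3 (adjusted p = 0.0942), and the LX-A3928 call without PBS replicate 1 or 3 or LX-A3928 replicate 1, 2 or 3 (adjusted p up to 0.346). The LX-A3928 call held in 1 of 6 other settings, the replicate block, and was lost with DESeq2-type size factors (adjusted p = 0.0542), library totals (0.683), no filter (0.0771), only the libraries compared (0.296) and DESeq2 (0.051). The 72 h call was lost under library totals and without the filter (adjusted p = 0.235 and 0.0567), and the LX-A2003 call under library totals and with only the libraries compared (adjusted p = 0.565 and 0.0836). Esrrg was scarce, at 1.1 to 1.8 CPM with PBS at 72 h, and fell to 0.0817 to 0.158 CPM with LX-A1656 (-3.70 ± 0.69, adjusted p = 1.51e-05) and 0.368 to 0.7 CPM with LX-A2003 (-1.66 ± 0.55, adjusted p = 0.039). The latter was lost without any of 6 single libraries (PBS replicates 1, 2 and 3, LX-A2003 replicates 1, 3 and 4), at adjusted p up to 0.114, without the filter (adjusted p = 0.0685) and with the replicate block (adjusted p = 0.0501). At 168 h PBS livers held 1, 1.24, 0 and 1.14 CPM, LX-A2003 livers 0.207, 0, 0.357 and 0, and LX-A3928 livers 0.303, 0.226, 0.122 and 0.0746. The PBS library at 0 puts both groups in overlap with PBS, and the changes were -2.56 ± 0.70 (adjusted p = 0.00177) and -2.15 ± 0.67 (adjusted p = 0.00716).

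The retinoic acid receptors were rarely called. Rara and Rarb were not called in any of the 9 comparisons, with log2 fold changes of -0.38 to 0.27 and -0.06 to 0.42. Rarg was called once, with LX-A2003 at 168 h, at 8.24 ± 2.52 CPM (SD, n = 4) against 4.91 ± 0.458 CPM with PBS (log2 fold change 0.74 ± 0.24, adjusted p = 0.00792), and the call was lost without LX-A2003 replicate 2 (adjusted p = 0.0765). Of 6 retinoid target genes 4 were tested, and 2 rose and 2 fell with LX-A1656 at 168 h, with 1 higher and 2 lower for each of the others. Of all genes at 168 h, 34.1%, 29.8% and 27.3% were higher and 29.7%, 25.3% and 20.7% lower. Dhrs3, a retinal reductase, fell from 536.1 to 58.7, 129 and 132 CPM. Cyp26a1, which degrades retinoic acid, fell from 37.4 to 3.61, 0.583 and 1.09 CPM.

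Of the remaining orphan receptors, Nr2f2, Nr2c2 and Nr6a1 fell at 168 h with all 3 oligonucleotides, while the calls of Nr2c1, Nr2f1 and Nr4a1 at 168 h were higher. Nr2f2, the gene for COUP-TFII, was at 82.8, 83.6, 114 and 77.6 CPM with PBS at 168 h. LX-A1656 held 56.4, 53.4, 57.3 and 48.6 CPM, LX-A2003 43.8, 45, 50.5 and 43.9 CPM, and LX-A3928 62.1, 50.2, 35.9 and 47 CPM, all below PBS (log2 fold changes -0.73 ± 0.13, -0.97 ± 0.13 and -0.87 ± 0.13). With LX-A1656 it was low already at 72 h, at 35.6 to 43.5 CPM against 75.8 to 93.8 CPM (-1.10 ± 0.13, adjusted p = 7.5e-10). The LX-A1656 call at 168 h was lost under library totals (adjusted p = 0.138). COUP-TFII is also made by endothelial and stellate cells, and the summed sinusoidal endothelial markers at 168 h were 389.8 to 415.2 CPM with PBS and 189.1 to 233.4, 226.6 to 267.2 and 255.1 to 318.4 CPM with the oligonucleotides. Of the 10 endothelial markers, 6, 6 and 5 were called lower and 3, 3 and 4 higher, and none was at 0. At 72 h the endothelial sums were 371.9 to 424.9 CPM with PBS and 151.4 to 166.2, 226.2 to 261.7 and 228.9 to 262.1 CPM with the oligonucleotides, with 6, 4 and 4 markers called lower and none higher. The 24 h endothelial sums were 369.3 to 403.2 CPM with PBS and 222.5 to 262.5, 327.4 to 365.3 and 307.1 to 337.6 CPM with the oligonucleotides. At that time 3, 2 and 2 markers were called lower and none higher. Over all genes 1.88%, 1.15% and 1.58% were lower at 24 h, 23.4%, 6.55% and 5.33% at 72 h, and 29.7%, 25.3% and 20.7% at 168 h. The higher shares at 168 h were 34.1%, 29.8% and 27.3%. Nr2f2 was not called at 24 h, nor at 72 h with LX-A2003 or LX-A3928. Stellate markers at 168 h were called higher for 8, 7 and 5 of 10 genes and lower for 1, 0 and 0. The part of these cells in the Nr2f2 result was not tested.

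Nr2f1, the gene for COUP-TFI, was at 1.13, 1.03, 0.538 and 0.508 CPM with PBS at 168 h. It was at 1.31, 1.76, 1.69 and 2.22 CPM with LX-A2003 (log2 fold change 1.09 ± 0.38, adjusted p = 0.0123) and at 2.27, 2.04, 1.1 and 1.79 CPM with LX-A3928 (1.16 ± 0.38, adjusted p = 0.00983). The LX-A2003 call was lost without PBS replicate 4 (adjusted p = 0.0519). Stellate markers at 168 h were called higher for 7 of 10 genes with LX-A2003 and 5 of 10 with LX-A3928, and none was lower. With LX-A1656 8 of 10 were called higher and 1 lower, and Nr2f1 was not called there. Of all genes at 168 h, 34.1%, 29.8% and 27.3% were higher with the 3 oligonucleotides. The part of these cells in the Nr2f1 result was not tested.

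The testicular receptors Nr2c1 and Nr2c2, which bind direct repeats as a heterodimer, moved apart. Nr2c1 rose at 24 h from 12.6, 8.47, 11.2 and 11.5 CPM with PBS to 17.6, 17.7, 21.2 and 19.4 CPM with LX-A1656 (log2 fold change 0.79 ± 0.20, adjusted p = 0.0146) and to 18, 23, 18.8 and 19.7 CPM with LX-A2003 (0.86 ± 0.20, adjusted p = 0.00945). Both groups lay above PBS. Without PBS replicate 2 both were lost (adjusted p = 0.0898 and 0.067), and the first also without LX-A1656 replicate 3 (adjusted p = 0.0602). It was higher at 72 h with LX-A1656 (0.62 ± 0.20, adjusted p = 0.0076) and LX-A2003 (0.58 ± 0.20, adjusted p = 0.0411), the latter lost on leaving out any of 7 single libraries (all but PBS replicate 4), at adjusted p up to 0.121, under library totals (adjusted p = 0.0978), without the filter (0.0685) and with the replicate block (0.0507). Library totals also ended the 24 h call with LX-A1656 (adjusted p = 0.0596). At 168 h it was higher with LX-A1656, at 28.6, 23.3, 26 and 18.7 CPM against 11.1, 15.3, 10.8 and 13.6 CPM (0.93 ± 0.20, adjusted p = 6.81e-05). Nr2c2 fell with LX-A1656 at 72 h from 19.4, 22.5, 23.7 and 15.8 CPM to 5.21, 6.55, 8.41 and 7.5 CPM (-1.55 ± 0.17, adjusted p = 1.94e-10). At 168 h it changed by -1.38 ± 0.17, -0.83 ± 0.17 and -0.84 ± 0.17, without overlap with PBS in any of the 3, and the LX-A2003 call was lost under library totals (adjusted p = 0.0599). At 24 h LX-A3928 held 20.4 to 23.3 CPM against 10.8 to 16.9 CPM (0.61 ± 0.16, adjusted p = 0.0246), and that call was lost without any of PBS replicates 1 and 2 and LX-A3928 replicates 1, 3 and 4 (adjusted p up to 0.155), under library totals (adjusted p = 0.0975) and without the filter (adjusted p = 0.0832).

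Nr6a1, the germ cell nuclear factor gene, was at 10.2, 9.61, 8.66 and 7.18 CPM with PBS at 72 h and at 1.22, 3.46, 3.84 and 3 CPM with LX-A1656, without overlap (log2 fold change -1.62 ± 0.28, adjusted p = 5.29e-06). By 168 h the Nr6a1 level in PBS livers was 7.67, 6.21, 4.98 and 8.13 CPM. LX-A1656 livers held 4.01, 5.73, 2.86 and 1.61 CPM, LX-A2003 livers 3.45, 3.34, 2.5 and 3.49, and LX-A3928 livers 3.41, 2.11, 3.65 and 2.98. The changes were -0.91 ± 0.28, -1.07 ± 0.28 and -1.16 ± 0.29 (adjusted p = 0.00402, 0.00134 and 0.000799), and only LX-A1656 overlapped PBS. The first 2 were lost under library totals (adjusted p = 0.189 and 0.0517).

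Nr4a1, of the NR4A receptors, rose from low levels by 168 h, and Vdr, the vitamin D receptor gene, gave more counts in treated livers at that time. The NR4A genes encode orphan receptors that are made within minutes to hours of a stimulus as immediate early genes, and the cyclic AMP response element is a known element of such promoters. Their upstream sequences are shown because all 3 carry that element's half-site more than once. Each line gives the 250 bases before the annotated start, 5′ to 3′ on the gene's strand, from RefSeq (GRCm38.p6), with every TGACG, or CGTCA on the other strand, in capitals. The windows are chr15:101266596-101266845 (plus strand) for Nr4a1, chr2:57124004-57124253 (minus strand) for Nr4a2 and chr4:48045055-48045304 (plus strand) for Nr4a3.
Nr4a1: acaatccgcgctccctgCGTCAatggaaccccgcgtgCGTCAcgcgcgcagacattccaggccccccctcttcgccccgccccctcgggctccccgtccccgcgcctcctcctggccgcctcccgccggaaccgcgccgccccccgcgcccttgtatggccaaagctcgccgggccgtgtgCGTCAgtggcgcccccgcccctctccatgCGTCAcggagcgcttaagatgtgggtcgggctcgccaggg
Nr4a2: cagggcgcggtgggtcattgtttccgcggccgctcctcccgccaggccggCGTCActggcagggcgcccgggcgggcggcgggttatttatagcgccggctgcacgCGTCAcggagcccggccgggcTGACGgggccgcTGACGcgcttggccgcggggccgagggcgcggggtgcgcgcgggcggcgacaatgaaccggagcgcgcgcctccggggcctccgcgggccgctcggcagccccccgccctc
Nr4a3: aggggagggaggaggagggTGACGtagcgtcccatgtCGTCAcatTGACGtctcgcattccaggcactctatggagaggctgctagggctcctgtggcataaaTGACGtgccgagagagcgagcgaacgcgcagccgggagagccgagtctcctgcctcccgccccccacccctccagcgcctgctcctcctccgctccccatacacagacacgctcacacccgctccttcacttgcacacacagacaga
Each window holds 4 matches of TGACG. At least 1 match is found in 17.8% of all 32851 promoter windows of the same length, and at least 4 in 0.137% (45 windows, which include these 3). The full palindrome TGACGTCA, searched on both strands and able to overlap the half-site, is in none of the 48 windows of the 30 members with an entry and in 1.55% of all windows. A match describes letters only, and binding was not measured.

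Nr4a1 rose most of the 28 tested members apart from Vdr. At 72 h its libraries held 1.71, 1.55, 0.842 and 0.598 CPM with PBS and 7.3, 4.82, 4.98 and 3.47 CPM with LX-A1656 (log2 fold change 2.13 ± 0.42, adjusted p = 3.63e-05). PBS livers at 168 h held 0.88, 0.931, 4.04 and 0.381 CPM. LX-A1656 livers held 33.2, 54, 45.7 and 66.8 CPM, LX-A2003 livers 9.18, 10.7, 8.74 and 7.05 CPM, and LX-A3928 livers 4.02, 4.75, 2.19 and 2.98 CPM. The first 2 groups lay above all PBS libraries and the third overlapped PBS replicate 3. The log2 fold changes were 5.03 ± 0.41 (adjusted p = 8.85e-15), 2.54 ± 0.40 (adjusted p = 6.27e-07) and 1.22 ± 0.42 (adjusted p = 0.0144). The LX-A3928 call was lost without PBS replicate 1, 2 or 4 or LX-A3928 replicate 2 (adjusted p = 0.0573, 0.0639, 0.0807 and 0.0533) and with only the libraries compared (adjusted p = 0.147). The 3 oligonucleotides also differed from each other by call in every pair at 168 h. Nr4a2 and Nr4a3, the other family members, gave few counts. Over the 4 libraries at 168 h Nr4a2 had 44 counts with LX-A1656 and 5 with PBS, a depth-adjusted ratio of 4.85 (95% exact counting interval 1.93 to 15.7), and Nr4a3 had 30 and 6, a ratio of 2.75 (1.13 to 8.09). The other oligonucleotides gave Nr4a2 ratios of 1.8 (0.611 to 6.37) and 2.19 (0.767 to 7.65) and Nr4a3 ratios of 2.14 (0.828 to 6.5) and 0.457 (0.0948 to 1.93), with intervals that include equality. All of these Nr4a2 and Nr4a3 intervals, those with LX-A1656 too, cover counting error only and not the spread between libraries.

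Vdr, the gene for the vitamin D receptor, is known to be low in hepatocytes and expressed in stellate cells, macrophages and bile duct cells. Its upstream window (chr15:97908297-97908546, minus strand, RefSeq, GRCm38.p6) holds no TGACG and 3 GC boxes (GGGCGG on either strand, in capitals), a count reached in 8.47% of all windows. Neither trait is particular to Vdr. The Nr4a1 window holds 3 GC boxes and the Nr4a2 window 4, and several other members reach 3. TGACG is found in 10 of the 30 members with an entry and in 17.8% of all windows.
Vdr: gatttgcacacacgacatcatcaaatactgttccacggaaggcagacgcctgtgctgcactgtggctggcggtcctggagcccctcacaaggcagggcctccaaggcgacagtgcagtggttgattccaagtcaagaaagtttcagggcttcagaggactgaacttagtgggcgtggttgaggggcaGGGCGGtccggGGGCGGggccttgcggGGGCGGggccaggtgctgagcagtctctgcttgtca
The PBS livers held 0 counts in 11 of 12 libraries and 1 count in the remaining library, replicate 4 at 168 h. At 168 h LX-A1656 livers held 98, 124, 96 and 66 counts, LX-A2003 livers 26, 16, 20 and 19, and LX-A3928 livers 8, 6, 1 and 6. The 3 treated groups did not overlap each other in counts, with LX-A1656 the highest and LX-A3928 the lowest. The depth-adjusted ratios to the single PBS count were 211 (95% exact counting interval 37.7 to 8370), 51.9 (9.06 to 2080) and 14.4 (2.31 to 595), intervals that cover counting error only. At 72 h LX-A1656 livers held 2, 1, 1 and 5 counts against 0 with PBS, at least 2.25-fold higher against a floor of 3 counts over the group. LX-A3928 livers held 5 counts in all at 72 h (at least 1.34-fold higher). At 24 h 1, 1 and 3 counts were found over the treated groups. The 3 listed vitamin D target genes, Cyp24a1, Trpv6 and S100g, stayed at group means of at most 0.103 CPM and were not tested.

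Markers of several non-parenchymal cell types were higher at 168 h, when Vdr and Nr4a1 were higher too. Stellate markers were called higher for 8, 7 and 5 of 10 genes and lower for 1, 0 and 0. All 5 recruited macrophage markers were called higher with each oligonucleotide. Of 7 tested Kupffer cell markers, 5, 4 and 5 were higher and 1, 0 and 1 lower, and of 5 tested bile duct cell markers 2, 2 and 2 were higher and 1, 0 and 1 lower. Of all genes at 168 h, 34.1%, 29.8% and 27.3% were higher and 29.7%, 25.3% and 20.7% lower. Bile duct markers summed to 84.9 to 114.5 CPM with PBS and to 220.4 to 300.6, 121.7 to 175.1 and 90.3 to 270.0 CPM with the oligonucleotides. The Kupffer sums were 225.1 to 245.1 CPM with PBS and 395.5 to 520.5, 449.2 to 600.9 and 370.8 to 606.8 CPM. Lymphocyte markers summed to at most 11.3 CPM and neutrophil markers to at most 43.6 CPM in any library of these groups. C1qa, a macrophage complement gene, and the lymphocyte and neutrophil genes Klrb1c and Ly6g were at 0 with PBS at 168 h. Zeros were not limited to PBS. A Kupffer marker was at 0 with LX-A2003 at 24 and 72 h, and a neutrophil marker with LX-A3928 at those times. A lymphocyte marker was at 0 in every group but LX-A1656 at 168 h. A gene at 0 does not show that its cells were absent, since the Kupffer sums with PBS at 168 h were 225.1 to 245.1 CPM. The part of these cells in the Vdr and Nr4a1 results was not tested.

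**Figure D4:**
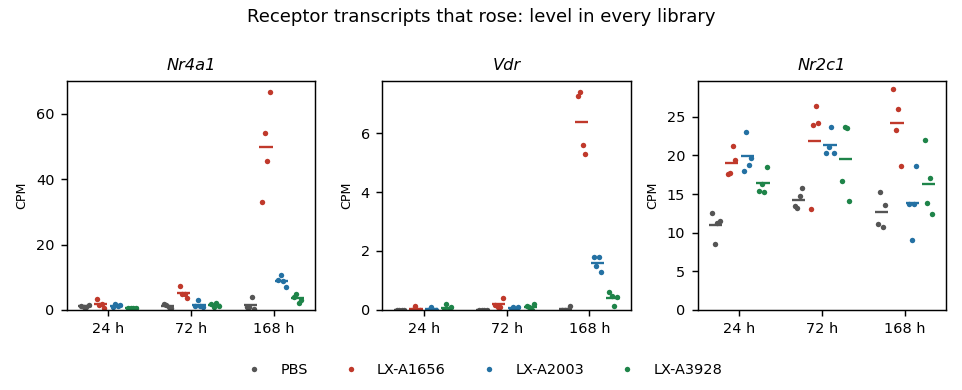
Level of Nr4a1, Vdr and Nr2c1 in each library as TMM-normalised CPM on linear axes from 0, by time and treatment (points, single libraries; bars, means of 4). At 168 h Nr4a1 and Vdr are highest with LX-A1656, lower with LX-A2003 and lowest of the treated groups with LX-A3928, and the mean of Nr2c1 with LX-A1656 is above that of PBS at all 3 times.

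The oligonucleotides were compared with each other at matched times, in 9 pairs over all genes. They have the same target and are known in the labels only by code names, and how their sequences or modifications differ is not known here. At 24 h LX-A2003 and LX-A1656 differed in 1 member, Ppard (-1.05 ± 0.25, adjusted p = 0.0378), where 0.284% of all genes were called (0.166% higher, 0.118% lower), and the call was lost on leaving out any of 6 libraries, with adjusted p up to 0.323 without LX-A1656 replicate 2, under library totals and with the replicate block. LX-A3928 and LX-A1656 differed in 4, Nr2c2 and Nr3c2 higher and Ppard and Nr4a1 lower with LX-A3928, where 2.9% of all genes were called (1.5% higher, 1.4% lower). The Nr2c2 call was lost without LX-A1656 replicate 2 (adjusted p = 0.0875) or LX-A3928 replicate 3 (adjusted p = 0.0622). Nr4a1 was at 0.391 to 0.492 CPM with LX-A3928 and 0.624 to 3.22 CPM with LX-A1656 (-1.94 ± 0.53, adjusted p = 0.0314), and the call was lost without LX-A1656 replicate 1 (adjusted p = 0.233) or any of 6 others. LX-A3928 and LX-A2003 gave 0 calls among members in edgeR and in DESeq2, with 4 of 28 at an unadjusted p under 0.05, against 0.15% of all genes (0.0631% higher, 0.0868% lower).

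At 72 h LX-A1656 stood apart. LX-A2003 differed from it in 12 members, 11 of them higher with LX-A2003, against 35.9% of all genes called (18% in each direction). LX-A3928 differed from LX-A1656 in 16 members, 15 of them higher with LX-A3928, against 40.6% of all genes (20.4% higher, 20.1% lower). Of these 12 and 16 calls, 9 and 12 held under every alternative, and Thra with LX-A3928 held in 1 of 14. Under library totals the members were 10 (8 higher, 2 lower) and 14 (11 higher, 3 lower). Of all calls in those fits, 28% and 26% were higher. Thrb differed by 2.21 ± 0.28 and 2.59 ± 0.28, Ppara by 1.64 ± 0.21 and 1.85 ± 0.21, and Rxra by 0.88 ± 0.17 and 1.10 ± 0.17, all higher with LX-A2003 and LX-A3928. LX-A3928 and LX-A2003 gave 0 calls among members at 72 h in edgeR and in DESeq2, with 4 of 28 at an unadjusted p under 0.05, against 0.718% of all genes (0.292% higher, 0.426% lower). For Thrb the 95% interval of the LX-A3928 and LX-A2003 difference was -0.12 to 0.87 and for Rxra -0.11 to 0.56 on the log2 scale.

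At 168 h LX-A2003 and LX-A1656 differed in 11 members (8 higher and 3 lower with LX-A2003, against 32.1% of all genes, 18.3% higher and 13.8% lower), and LX-A3928 and LX-A1656 in 11 (7 higher and 4 lower, against 41.7%, 23.2% higher and 18.5% lower). Without Vdr each pair had 10. Thrb differed by 2.69 ± 0.31 and 2.68 ± 0.32, and Nr4a1 by -2.49 ± 0.33 and -3.81 ± 0.36. LX-A3928 and LX-A2003 differed in 2 apart from Vdr, Rxrg higher and Nr4a1 lower with LX-A3928, against 8.1% of all genes (5.33% higher, 2.77% lower). Nr4a1 was lower with LX-A3928 (-1.33 ± 0.35, adjusted p = 0.0129), a call lost without LX-A3928 replicate 3 (adjusted p = 0.0869) and with only the libraries compared (adjusted p = 0.114). For Thrb the interval of the difference between LX-A3928 and LX-A2003 was -0.54 to 0.51, and for Esr1 -0.84 to 0.08.

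The change with time was tested as the effect at 168 h minus the effect at 24 h. It was called for 16 members with LX-A1656 (1 higher, 15 lower) against 47% of all genes (23.2% higher, 23.8% lower). With LX-A2003 it was called for 16 (3 higher, 13 lower) against 38.5% (20% higher, 18.5% lower), and with LX-A3928 for 14 (3 higher, 11 lower) against 32.4% (17.4% higher, 15% lower). Of these 46 calls, 21 were lost under library totals, 8 without the filter and 6 with only the libraries compared. Nr1i3 and Thrb had large shifts, with Nr1i3 at -2.92 ± 0.27, -2.15 ± 0.27 and -2.68 ± 0.27 and Thrb at -4.28 ± 0.39, -2.20 ± 0.34 and -2.31 ± 0.34. Ppara shifted by -1.11 ± 0.29, -1.37 ± 0.29 and -1.17 ± 0.29 and Nr2c2 by -1.31 ± 0.24, -1.40 ± 0.23 and -1.45 ± 0.23. Nr4a1 shifted upward by 4.38 ± 0.64, 2.37 ± 0.64 and 2.51 ± 0.70. With PBS alone, 168 h against 24 h gave 0 calls among members in edgeR, with 4 of 28 at an unadjusted p under 0.05, where 1.03% of all genes were called (0.355% higher, 0.679% lower). DESeq2 made 2 calls in that comparison of PBS groups.

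Gene size was also compared with the response, for members that were chosen with earlier results of these data known. The genomic span of the 28 tested members in GENCODE M21 had a median of 52.7 kb against 24.4 kb for the 12119 tested genes with a span (95.6% of those tested). A span over 100 kb was found for 9 members, Esrrg (606.1 kb), Esr1 (394.0 kb), Rarb (388.3 kb), Thrb (377.8 kb), Nr3c2 (345.6 kb), Nr6a1 (204.3 kb), Pparg (129.4 kb), Nr5a2 (117.9 kb) and Nr3c1 (108.9 kb). With LX-A1656 at 72 h, 7 of these 9 were called lower and 1, Pparg, higher, against 8 lower and 3 higher of the 19 shorter members. Vdr (56.2 kb) is among these 19 and is 1 of the 3 higher. Over all tested genes of any span, 23.4% were called lower and 24.7% higher in that comparison. The shares among all genes over 100 kb were not computed. At 168 h the lower calls were 6 of 9 and 10 of 19 with LX-A1656, 7 of 9 and 10 of 19 with LX-A2003, and 5 of 9 and 8 of 19 with LX-A3928. At that time 29.7%, 25.3% and 20.7% of all tested genes were called lower. Spearman's rho between span and log2 fold change over the 28 members was -0.23, -0.04 and 0.17 at 24 h, -0.32, -0.16 and -0.18 at 72 h, and -0.24, -0.35 and -0.34 at 168 h, a description across genes that share libraries. Each rho includes Vdr, which has almost no PBS counts, and none was computed without it. At 24 h the long members gave 1 lower call with LX-A1656, none with LX-A2003 and 2 higher with LX-A3928. Over all genes at 24 h, 1.88%, 1.15% and 1.58% were lower and 0.986%, 0.939% and 1.68% higher. Rarb, at 388.3 kb, was the only 1 of the 9 long members with no call against PBS. Nr1i3, at 6.7 kb and 1 of the 19 shorter members, was called lower with all 3 oligonucleotides at 72 and 168 h. The part of gene span in the receptor results was not tested.

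**Figure D5:**
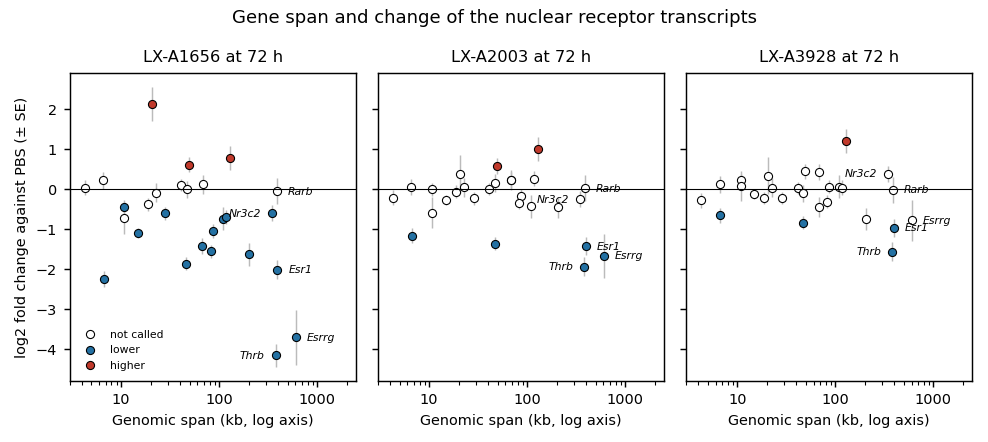
Log2 fold change against PBS at 72 h (with its SE) by genomic span in kb on a log axis, for 27 receptor genes and each oligonucleotide. Filled blue and red points are called lower and higher and open points are not called, and Vdr is left out. Thrb and Esr1 are called lower in all 3 panels, and Rarb of like span is not called in any.

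Other members of the receptor superfamily outside the 32 were counted in the same way. Of 17 such genes 9 were tested, and 6 were lower with LX-A1656 at 72 h, where none was higher and 23.4% of all genes were lower. At 72 h LX-A2003 gave 0 higher and 1 lower, and LX-A3928 1 and 1. At 168 h the calls were 1 higher and 5 lower with LX-A1656, 3 lower with LX-A2003 and 4 lower with LX-A3928, where 29.7%, 25.3% and 20.7% of all genes were lower. The clock repressor Nr1d1 changed by -2.46 ± 0.25 with LX-A1656 at 168 h. The coregulators that receptors recruit were called in both directions. Of 10 coactivators, 6 fell and 1 rose with LX-A1656 at 72 h and 3 fell with each of the others. At 168 h 2 fell and 4 rose, 5 fell and 1 rose, and 4 fell and 1 rose. Over all genes 23.4%, 6.55% and 5.33% were lower and 24.7%, 5.48% and 4.47% higher at 72 h. The shares at 168 h were 29.7%, 25.3% and 20.7% lower and 34.1%, 29.8% and 27.3% higher. Ncoa2, a p160 coactivator, was at 77.4 CPM with PBS and at 15.2, 24.5 and 23.3 CPM at 168 h. Its relative Ncoa1 changed by -1.87 ± 0.25, -1.19 ± 0.24 and -0.98 ± 0.24 at 72 h. Ppargc1a, the mitochondrial coactivator, rose with LX-A1656 at 168 h (1.63 ± 0.33) and fell with LX-A2003 (-1.23 ± 0.34) and LX-A3928 (-1.18 ± 0.35). Of 8 corepressors, 3 fell and 1 rose at 168 h with LX-A1656, 2 fell and 3 rose with LX-A2003, and 3 fell and 2 rose with LX-A3928. Tbl1x changed by -1.44 ± 0.16 and Lcor by -1.03 ± 0.19 with LX-A1656 at 168 h.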

How the data were processed

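Liver RNA was amplified with the Ion AmpliSeq Transcriptome Mouse kit, per the labels' protocols, and the authors deposited raw counts per gene for 48 libraries. Aligner, build and annotation are not stated in these sources. Genes were filtered with filterByExpr over the 12 groups and fitted with edgeR 4.0.16 in R 4.3.3 (TMM factors, robust quasi-likelihood test, 36 residual degrees of freedom), with Benjamini-Hochberg adjustment over 12672 genes and a threshold of 0.05. CPM values are TMM-normalised counts. The 23 comparisons were 9 against PBS, 9 between oligonucleotides, 2 between PBS times and 3 of effects between times. Ratios of low counts carry exact 95% intervals.

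Levels in every library are given for called members whose log2 fold change reached 1 in size, for Nr1h4, Ppara, Rxra, Nr3c1 and Nr5a2, and, chosen after its values were seen, for Nr2c1. Each gene list names at most 3 genes, by smallest p among its calls; some genes that this rule names are not reported here. Members and lists were chosen with earlier results of these data known. Alternatives were DESeq2-type size factors, library totals alone, no filter, a replicate block, only the libraries compared, DESeq2 1.42.0 and leaving out each library. These were read for the members and for counts over all genes, and calls of the gene lists were not checked under them. On simulated data for LX-A1656 against PBS at 72 h (12292 genes), 57.7% of 2-fold and 93.7% of 4-fold changes were recovered. Only 192 genes were changed in that simulation, where 48.2% of all genes were called in the real comparison. The recovered shares therefore describe the simulated setting alone.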

Additional observations from a re-analysis of the deposited data

Results flagged for a closer look

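The effect of an oligonucleotide on a member differed between 168 h and 24 h in 46 tests (edgeR interaction, adjusted p under the threshold), of which 21 were lost under library totals. Values are log2 differences, the effect at 168 h minus that at 24 h, and negative values mean a lower log2 fold change at 168 h. For a member below PBS at both times, a negative value is a larger fall at 168 h and a positive value a smaller one. Among the drug, sterol and retinoid sensors, Nr1i2 gave -0.57 with LX-A1656 and -0.60 with LX-A3928. These calls were lost without any of 6 and any of 10 single libraries of 16 (adjusted p up to 0.113 and 0.0889), under library totals (adjusted p = 0.89 and 0.495) and without the filter (adjusted p = 0.0789 and 0.0802), and the first with only the libraries compared (adjusted p = 0.0542). Nr1i3 gave -2.92, -2.15 and -2.68 for the 3 oligonucleotides in ascending number. Rxra gave -0.64, -0.64 and -0.82, Rxrg -1.63 with LX-A1656 and -1.36 with LX-A2003, Nr1h3 -1.43 with LX-A1656, and Rarg 0.89 with LX-A2003. Leaving out single libraries ended the Rxra calls with LX-A1656 (any of 3, adjusted p up to 0.0882) and LX-A2003 (any of 5, up to 0.0972) and the Rarg call (any of 5, up to 0.12). Among the PPAR genes, Ppara gave -1.11, -1.37 and -1.17, Pparg -1.55 with LX-A2003, and Ppard 1.34 with LX-A2003 and 1.31 with LX-A3928.

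Among hormone receptors, Thrb gave -4.28, -2.20 and -2.31, Thra -0.97 with LX-A1656, Esr1 -0.92, -0.80 and -1.06, and Nr3c2 -1.10, -0.80 and -1.29. Esrra gave -0.81 with LX-A1656 and Esrrg -2.29 with LX-A2003. With LX-A2003 the Esr1 and Esrrg calls were each lost without any of 8 libraries (adjusted p up to 0.102 and 0.087) and the Nr3c2 call without any of 3 (up to 0.0688). Among the orphan receptors, Nr2f2 gave -0.63, -0.87 and -1.12, Nr2c2 -1.31, -1.40 and -1.45, and Nr5a2 -0.93, -1.12 and -1.18. Nr6a1 gave -0.92 with LX-A1656 and -1.10 with LX-A3928, Nr2c1 -0.74 with LX-A2003 and Nr2f1 1.40 with LX-A3928. The Nr2f1 call was lost without any of 12 of the 16 libraries (adjusted p up to 0.101), without the filter (0.124), with the replicate block and with only the libraries compared. The Nr6a1 calls were lost without any of 10 and any of 4 libraries (adjusted p up to 0.125 and 0.0763) and under library totals, and the Nr2c1 call without any of 5 (adjusted p up to 0.095) and under library totals. Nr4a1 gave 4.38, 2.37 and 2.51, the only member among these calls with a higher log2 fold change at 168 h for all 3.

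A single library stood far from the other 3 of its group in 14 of 327 gene and group sets (4.28%), where chance gives about 1 in 20. High values were Rara at 72.3 CPM in LX-A1656 replicate 1 at 72 h, Rarb at 6.62 in PBS replicate 3 at 72 h, Ppara at 174 and Esr1 at 3.64 in LX-A1656 replicate 2 at 72 h, and Nr2f1 at 1.47 in LX-A2003 replicate 4 at 72 h. Nr2f2 was high at 114 CPM in PBS replicate 3 and at 50.5 in LX-A2003 replicate 3, both at 168 h, and Nr3c1 at 91.9 in LX-A1656 replicate 4 at 24 h. Nr4a1 was high at 4.04 CPM in PBS replicate 3 at 168 h and at 3 in LX-A2003 replicate 2 at 72 h. Low values were Thra at 24.9 CPM in LX-A2003 replicate 4 and Nr6a1 at 2.5 in LX-A2003 replicate 3, both at 168 h, Esrrg at 0.207 in LX-A3928 replicate 4 at 72 h, and Nr3c1 at 36.4 in LX-A1656 replicate 1 at 72 h.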

How the results depend on the processing

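Of the 99 calls against PBS, 98 held with DESeq2, 98 with DESeq2-type size factors, 91 without the filter, 81 with only the libraries compared (13 lost and the rest, Vdr among them, not tested there), and 68 under library totals alone, where 30 were lost and Nr5a2 with LX-A1656 at 168 h reversed to 0.00013. Counts of called members moved as follows; the cause was not tested. Library totals gave 11 for LX-A2003 against PBS at 168 h, 0 for LX-A2003 against LX-A1656 at 24 h, and 8 and 10 for the change in effect with LX-A1656 and LX-A2003. Fitting only the libraries compared gave, against PBS, 5 (LX-A1656, 24 h), 10 (LX-A3928, 24 h) and 7 (LX-A3928, 168 h, 0 of them higher). Between oligonucleotides it gave 4 (LX-A2003 and LX-A1656, 24 h), 9 (LX-A3928 and LX-A1656, 24 h), 2 (LX-A3928 and LX-A2003, 24 h), and 7, 6 and 0 in the same order of pairs at 168 h. DESeq2 gave 3 and 7 for LX-A2003 and LX-A3928 against LX-A1656 at 24 h, and 2 for PBS at 168 against 24 h. Over all genes, fitting only the libraries compared gave 1435 calls in place of 413 for LX-A3928 at 24 h, 803 in place of 363 and 754 in place of 265 for LX-A1656 and LX-A2003 at 24 h, 2509 in place of 1524 for LX-A2003 at 72 h, and 3208 in place of 6087 for LX-A3928 at 168 h. For LX-A3928 against LX-A2003 at 168 h that fit gave 29 in place of 1026, and against LX-A1656 1455 in place of 368 at 24 h and 2870 in place of 5278 at 168 h. DESeq2 gave 404 calls over all genes for LX-A2003 at 24 h and 274 in place of 131 for PBS at 168 against 24 h.

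Leaving out 1 library gave 2 to 5 members for LX-A3928 at 24 h (2 without PBS replicate 1, 3 without LX-A3928 replicate 1 or 4) and 4 to 6 for LX-A2003 at 72 h (4 without PBS replicate 3). It gave 0 to 1 for LX-A2003 against LX-A1656 at 24 h, 2 to 4 for LX-A3928 against LX-A1656 at 24 h (2 without LX-A1656 replicate 2 or LX-A3928 replicate 3), 0 to 1 for LX-A3928 against LX-A2003 at 72 h (1 without LX-A3928 replicate 4) and 1 to 3 at 168 h (1 without LX-A3928 replicate 3). PBS gave 1 to 2 for 72 against 24 h (2 without 72 h replicate 4) and 0 to 1 for 168 against 24 h (1 without 24 h replicate 4 or 168 h replicate 3). With the replicate number as a block, 97 of the 99 calls held, Nr2c1 and Esrrg with LX-A2003 at 72 h missed the threshold (adjusted p = 0.0507 and 0.0501), and LX-A2003 against LX-A1656 at 24 h gave 0. The numbers did not pair the samples: in 0 of 18 comparisons did all pairs of deviations correlate above 0.1, and 20 of 72 samples correlated best with their own number. Depth limits Vdr, Nr1h4, Nr4a2 and Nr4a3, which rest on few counts.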
